A study of Homo sapiens with 44 samples.

Results

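The effects of EZH2 knockdown and of RelA knockdown on gene expression were set side by side in MDA-MB-231 cells, an established line of human triple-negative breast cancer that lacks oestrogen receptor, progesterone receptor and HER2. Of the 44 samples in the series, 8 RNA sequencing libraries made up this comparison. In the first experiment the cells received a control siRNA (siCa) or an siRNA against RelA (siRelA), and in the second a control siRNA (siCtl) or an siRNA against EZH2 (siEZH2), with 2 libraries in each of these 4 groups. Every group was transfected with 20 nM siRNA and collected 48 h later, the general time given in the labels. The knockdowns were transient and made in a single line, and the sources used here do not give the siRNA sequences. The experiments shared no library and were prepared at different facilities, and whether they used the same control siRNA is not stated, so each change was taken against the control of its own experiment. By gene symbol 24940 genes were found in both deposited tables, and 11625 of them, 11242 protein coding, passed the filter on low values in both. These 11625 genes are described here by whether siEZH2 and siRelA moved them the same way, in opposite ways, or by one knockdown alone.

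EZH2 is the catalytic subunit of Polycomb repressive complex 2 (PRC2), which methylates lysine 27 of histone H3 and keeps developmental genes silent. RelA is the main transactivating subunit of canonical NF-kB, a transcription factor that is held in the cytoplasm by IkB proteins and, once released, switches on cytokine, survival and feedback genes at kB motifs in DNA. EZH2 has also been described as a partner of NF-kB subunits in triple-negative breast cancer cells, and the study's title names such a link, so the comparison asks which genes depend on both proteins and in which direction.

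Reads assigned to genes came to 24.0 and 23.2 M in the siCa libraries and to 24.4 and 21.5 M in the siRelA libraries. For siCtl and siEZH2 the deposited values were variance-stabilised, and normalised counts were recovered from them by inverting an assumed form of the transformation, with totals between 26.2 and 26.9 M. In the text, counts refer to the first experiment and recovered counts to the second. Changes are log2 differences from control with their standard error, on the count scale for siRelA and on the variance-stabilised scale for siEZH2, which understates the change of genes with few reads. A gene was called at an adjusted p under 0.05. The mesenchymal markers VIM, CD44, ZEB1, MSN and AXL were present in all 8 libraries. Of 5 epithelial or receptor markers, CDH1, the epithelial cadherin, stayed at or under 9 counts and 25 recovered counts. ESR1 and PGR stayed at or under 7 and 20 counts and at 0 recovered counts. EPCAM was not low, with 508 and 430 counts in siCa and 494 and 471 in siRelA. Its recovered counts were 1410 and 1297 in siCtl and 518 and 556 in siEZH2. ERBB3 had 61 counts or fewer, and 189 and 196 recovered counts in siCtl against 126 and 132 in siEZH2. CD3E, MS4A1 and SPI1, defining markers of blood cells, were at 0 in all 8 libraries. Other markers of blood cells were not: CSF1R had 268 and 248 counts in siCa and 395 and 354 in siRelA, and 67 and 66 recovered counts in siCtl and 172 and 192 in siEZH2. CD68, a lysosomal protein of macrophages, had 5 counts or fewer in the first experiment but 1424 and 1707 recovered counts in siCtl and 3266 and 3331 in siEZH2. CD14 stayed at or under 24 counts and 34 recovered counts. The summed CPM (counts scaled to library size) of the 10 blood cell markers was 12.4 and 11.7 in siCa and 17.3 and 17.6 in siRelA, and their summed recovered counts were 1501 and 1787 in siCtl and 3478 and 3574 in siEZH2. The fibroblast markers DCN and THY1 stayed at or under 3 counts or recovered counts, while the summed CPM of the 7 fibroblast markers was 29.9 to 30.9 in siCa and 49.0 to 57.6 in siRelA, through COL1A1 and PDGFRB, and their summed recovered counts were 294 and 302 in siCtl and 397 and 441 in siEZH2. The part of these markers in the results was not tested. Fewer cells of a type and less RNA per cell cannot be told apart in such bulk libraries.

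Each siRNA lowered its own target and left the other target near its control level. RELA had 3562 and 3391 counts in the siCa libraries and 265 and 275 in the siRelA libraries, a 13.0-fold fall (log2 change -3.71 ± 0.11, edgeR adjusted p 1.4e-12). Its recovered counts were 2192 and 2252 in siCtl and 2170 and 2008 in siEZH2, a change of -0.08 ± 0.06 that was not called (limma adjusted p 0.238). EZH2 had 3022 and 3020 recovered counts in siCtl and 368 and 298 in siEZH2, a 9.08-fold fall (-2.52 ± 0.07, adjusted p 5.5e-11). Its counts were 2606 and 2417 in siCa and 2655 and 2553 in siRelA, groups that overlap once depth is accounted for (0.03 ± 0.09, adjusted p 0.866). The difference between the knockdowns was called for both targets, at 3.58 for RELA and -3.19 for EZH2 (adjusted p 3.5e-10 and 1e-09). This difference was tested directly, as the siEZH2 effect minus the siRelA effect on log2(normalised count + 8), and a positive value means higher under siEZH2.

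The other NF-kB subunits fell together in both knockdowns, except REL. RELB, the subunit of the non-canonical arm, had 923 and 916 counts in siCa against 377 and 295 in siRelA. Its recovered counts were 632 and 589 in siCtl against 184 and 206 in siEZH2. The knockdown libraries lay below all controls in both experiments, with changes of -1.48 ± 0.14 under siRelA (adjusted p 1.6e-06) and -1.02 ± 0.08 under siEZH2 (adjusted p 1.7e-07). The size of the RELB change did not differ between the knockdowns by the test (difference -0.15, adjusted p 0.527), though on the variance-stabilised values as deposited the difference was 0.45. NFKB2, which encodes p100 and p52, fell by 0.65 under siRelA (2789 and 2319 counts against 1711 and 1606) and by 0.30 under siEZH2 (2112 and 2241 recovered counts against 1735 and 1705). NFKB1, which encodes p105 and p50, had 1560 and 1577 counts in siCa and 1326 and 1068 in siRelA (-0.42 ± 0.11), and 3059 and 2995 recovered counts in siCtl and 1817 and 1907 in siEZH2 (-0.63 ± 0.05). The siRelA call of NFKB1 was lost without siCa replicate 1 (-0.45), without siCa replicate 2 (-0.40) and without siRelA replicate 2 (-0.36). REL was called in neither knockdown, with 107 and 94 counts against 110 and 89 and 218 and 201 recovered counts against 274 and 226.

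Over all 11625 genes the knockdowns moved more genes the same way than in opposite ways. siEZH2 changed 6783 genes, 58.3% of those compared, of which 3547 rose (30.5%) and 3236 fell (27.8%). siRelA changed 2849 genes (24.5%), of which 1295 rose (11.1%) and 1554 fell (13.4%). Both knockdowns changed 1930 genes (16.6%), and 1338 of these, 69.3%, moved the same way. Of all genes compared, 656 rose in both (5.64%) and 682 fell in both (5.87%), while 360 rose under siEZH2 and fell under siRelA (3.10%) and 232 did the reverse (2.00%). In addition, 4853 genes were called under siEZH2 alone, 919 under siRelA alone and 3923 in neither. The siCa libraries weigh on these counts: without siCa replicate 1 the classes held 333, 428, 236 and 114 genes, and without siCa replicate 2 they held 369, 429, 239 and 147. Without siRelA replicate 1 the genes that rose in both numbered 388 and those that fell under siEZH2 and rose under siRelA 138. In all 8 fits that left out 1 library, the same-direction share stayed between 67.3% and 70.3%, and 208 of the genes that rose in both and 248 of those that fell in both kept their class in each fit.

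**Figure D1:**
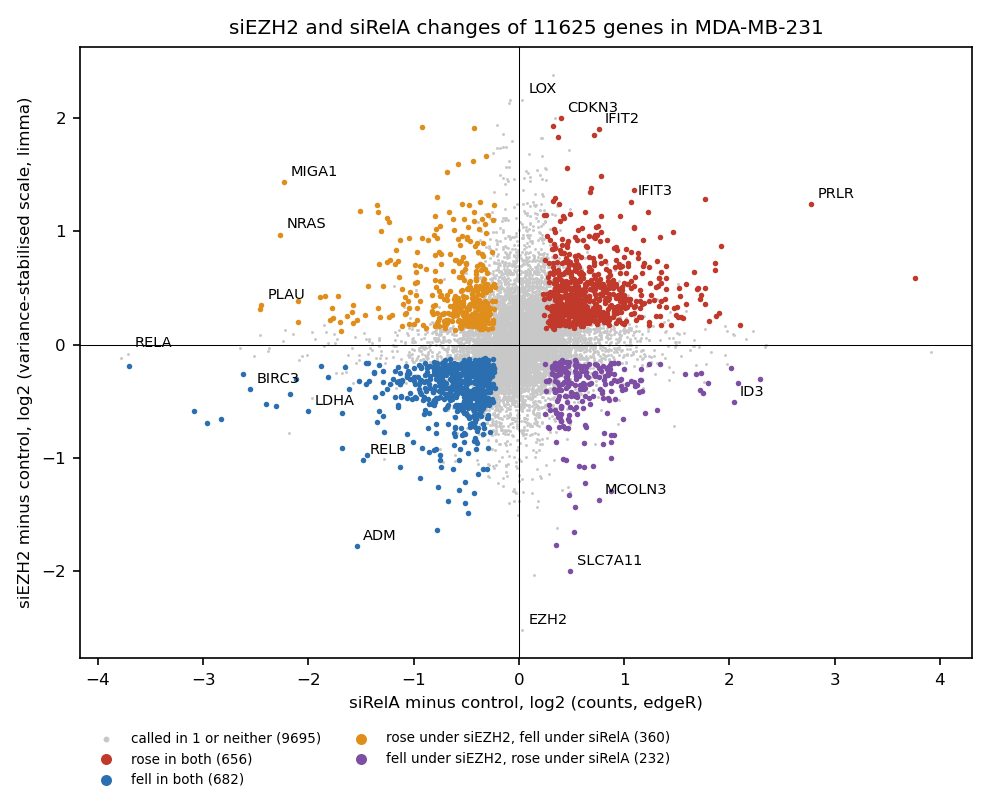
Each point is 1 of 11625 genes, with its siRelA change (x axis, log2, counts) and its siEZH2 change (y axis, log2, variance-stabilised scale) in MDA-MB-231. Colours mark genes called in both knockdowns; 1338 of 1930 lie in the upper right and lower left of the plot, and the targets RELA and EZH2 lie near the axes.

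How often a gene was called under siEZH2 varied with its siRelA call, in both directions. Of the 1554 genes that fell under siRelA, 43.9% also fell under siEZH2 and 23.2% rose. Of the 1295 that rose under siRelA, 50.7% rose under siEZH2 and 17.9% fell. The genes not called under siRelA rose under siEZH2 in 28.8% and fell in 26.5%. Seen from the other list, 21.1% of the 3236 genes that fell under siEZH2 fell under siRelA and 7.17% rose, and 18.5% of the 3547 that rose under siEZH2 rose under siRelA and 10.1% fell. Sorted by the size of the siRelA change, the share that rose under siEZH2 was 48.1% among the 239 genes that siRelA raised by 1 to 2 on the log2 scale, and 19.1% among the 491 that it lowered by 0.58 to 1. The 31 genes lowered by more than 2 under siRelA fell under siEZH2 in 38.7% and rose in 19.4%. Only 14 genes rose by more than 2 under siRelA, of which 3 rose and 4 fell under siEZH2. Across genes the correlation of the 2 changes was weak (Pearson 0.167, Spearman 0.222), a description of genes that are not independent replicates.

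**Figure D2:**
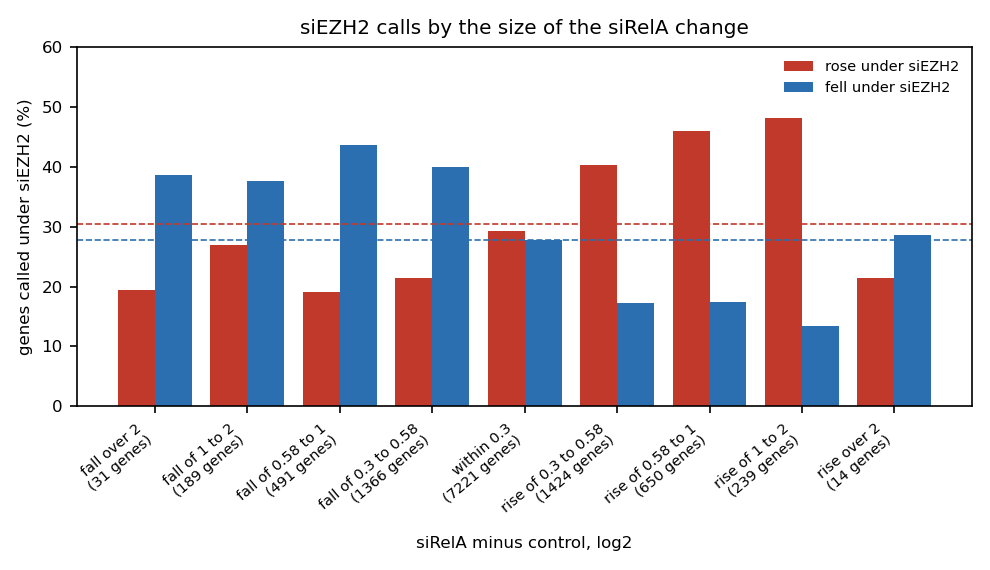
Share of genes (y axis, %) that rose (red) or fell (blue) under siEZH2, for genes grouped by their siRelA change (x axis, log2, with gene numbers); dashed lines give the shares over all 11625 genes, 30.5% and 27.8%. Rises outnumber falls in the groups that siRelA raised by 0.3 to 2, and falls outnumber rises in every group that siRelA lowered by 0.3 or more.

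For most genes that moved the same way no difference in size was called, which does not show that the sizes were equal. Among the 1338 genes that moved together, the difference between the knockdowns was called for 318 and not called for 1020, beside 36.5% called over all genes (20.9% higher and 15.6% lower under siEZH2). Among all 592 genes that moved in opposite ways the difference was called. This follows almost from their definition, since both effects were already called with opposite signs in the same libraries. Of the 4853 genes called under siEZH2 alone, 50.5% had a called difference, and of the 919 called under siRelA alone, 71.2%. The other genes called in a single knockdown are not shown to differ between the knockdowns. A change of at least 1.5-fold was called for 9.75% of genes under siEZH2 (6.27% up, 3.48% down) and 10.2% under siRelA (5.37% up, 4.78% down). With this size required in both, 128 genes moved together (87 up, 41 down) and 61 in opposite ways (44 up and 17 down under siEZH2).

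Classes also differed in level, which enters the filters and the precision of the calls, and in gene length. The median control level was 28.9 CPM for genes that rose in both and 80.9 CPM for those that fell in both, against 36.8 CPM over all genes. It was 88.3 CPM for genes that rose under siEZH2 and fell under siRelA, and 36.4 CPM for the reverse. The median exonic length in GENCODE v44 was 6.41 kb for genes that rose in both, 5.19 kb for those that fell in both and 5.55 kb over all genes. The part of level and length in the class counts was not tested.

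The 8 protein-coding genes with the largest rise common to both knockdowns were CHIC1, PRLR, DPY19L1, COL5A1, IFIT3, SHC3, ADAM17 and AGO4. CHIC1, on the X chromosome, had 140 and 160 counts in siCa and 516 and 521 in siRelA, and 199 and 223 recovered counts in siCtl against 868 and 772 in siEZH2. It rose 3.40-fold under siRelA and 3.89-fold under siEZH2, with no overlap between control and knockdown libraries. PRLR, the prolactin receptor, had 59 and 68 counts against 475 and 416 and 103 and 72 recovered counts against 497 and 426. Its rise was 6.88-fold under siRelA and 5.29-fold under siEZH2 (2.78 ± 0.20, adjusted p 7.8e-08, and 1.24 ± 0.08, adjusted p 2.3e-08, on the scales of the fits). ADAM17, the protease that sheds TNF and EGFR ligands from the cell surface, rose by 1.09 under siRelA (577 and 714 counts against 1558 and 1254) and by 1.03 under siEZH2 (1338 and 1371 recovered counts against 2983 and 3105). AGO4, an Argonaute protein of the microRNA pathway, went from 180 and 157 counts to 519 and 426 and from 173 and 186 recovered counts to 572 and 546. DPY19L1, a mannosyltransferase family gene, rose by 1.23 and 1.17, and SHC3, an adaptor of receptor tyrosine kinases, by 1.09 and 1.04 under siRelA and siEZH2. In each of these 8 genes every knockdown library lay above both of its controls, which their choice by size of change makes likely and which adds no support.

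Type I interferon genes were the list with the most members raised in both knockdowns. Of 43 members compared, 36 rose and 1 fell under siEZH2, beside 30.5% and 27.8% of all genes, and 20 rose and 1 fell under siRelA, beside 11.1% and 13.4%. Of these, 17 rose in both, beside 5.64% of all genes, and 8 did so in each fit without 1 library: IFIT1, IFIT2, IFIT3, IFI44, OASL, IFIH1, DDX60 and HERC6. The median change of the list was 0.41 under siEZH2 and 0.45 under siRelA, against 0.01 and -0.01 over all genes. No member fell in both. IFIT3, an antiviral protein that acts with IFIT1 on foreign RNA, had 1906 and 2005 counts in siCa against 4422 and 3946 in siRelA, and 3595 and 3953 recovered counts in siCtl against 8981 and 9791 in siEZH2. It rose by 1.07 ± 0.09 and 1.26 ± 0.08. DDX60, a helicase linked to sensing of viral RNA, had 449 and 541 counts against 1252 and 1301 and 1212 and 1355 recovered counts against 2638 and 2789, rises of 1.34 and 0.95. IFIT2 rose more under siEZH2, from 777 and 799 to 3496 and 3810 recovered counts, than under siRelA, from 798 and 820 to 1410 and 1375 counts, and the difference of 1.45 was called (adjusted p 4.6e-07). IFIT1 rose by 0.97 under siEZH2 and 0.72 under siRelA. IFIH1 (MDA5), a sensor of double-stranded RNA, rose by 0.59 under siEZH2 and 1.33 under siRelA, and HERC6, an E3 ligase, by 0.72 and 1.04. DTX3L, partner of PARP9, went the opposite ways: 0.34 under siEZH2 and -0.47 under siRelA. HERC5 fell under siEZH2 and rose under siRelA, a pair of calls not made in every fit without 1 library.

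The promoters of IFIT3 and DDX60 are shown because both genes rose in both knockdowns and both windows hold the interferon-response motif, searched as TTTC, any 2 bases, TTTC. In RefSeq promoters on GRCh38.p14, from 250 bases before the start to 50 after it, 9 of the 13 promoters found for the 17 interferon genes that rose in both held this motif on either strand (69.2%), against 2.77% of promoters of all genes compared and 3.65% of all RefSeq promoters. The share among the list's other members was not computed, so this share describes interferon genes and cannot be tied to the rise in both. In IFIT3 the matches begin 156 and 122 bases before the start, and in DDX60, where they lie on the other strand, 88 and 53 bases before it. The IFIT3 window is chr10:89327747-89328046 on the plus strand and the DDX60 window chr4:168318703-168319002 on the minus strand, each upstream of and into the first exon. Capitals mark the matches.
IFIT3: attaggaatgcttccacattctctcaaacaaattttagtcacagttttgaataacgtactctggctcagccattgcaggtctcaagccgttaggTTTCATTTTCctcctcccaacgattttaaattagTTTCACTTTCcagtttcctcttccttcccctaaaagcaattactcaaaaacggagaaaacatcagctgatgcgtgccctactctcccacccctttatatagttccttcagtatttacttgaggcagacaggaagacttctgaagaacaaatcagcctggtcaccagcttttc
DDX60: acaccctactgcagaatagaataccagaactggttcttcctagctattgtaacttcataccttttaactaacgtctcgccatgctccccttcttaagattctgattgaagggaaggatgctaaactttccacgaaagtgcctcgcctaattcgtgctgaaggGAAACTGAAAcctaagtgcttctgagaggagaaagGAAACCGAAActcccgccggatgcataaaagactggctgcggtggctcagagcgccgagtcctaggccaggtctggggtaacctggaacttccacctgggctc

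MHC class I genes, many of which interferon also induces, were called mostly under siEZH2. Of 20 members, 16 rose under siEZH2 and none fell, while 2 rose and 1 fell under siRelA, beside 30.5% and 27.8% of all genes under siEZH2 and 11.1% and 13.4% under siRelA. The medians were 0.26 and 0.03. PSMB8 and ERAP1 rose in both, though neither pair of calls held in every fit without 1 library. The difference was called higher under siEZH2 for 10 of the 20, beside 20.9% of all genes.

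Among genes of the extracellular matrix, shared rises were the most frequent pair of calls. Of 30 collagen and matrix genes, 9 rose in both, 1 fell in both, 2 rose under siEZH2 and fell under siRelA and 1 did the reverse, beside 5.64%, 5.87%, 3.10% and 2.00% of all genes, so the opposite pairs lay near the share over all genes. The medians were 0.51 under siEZH2 and 0.24 under siRelA. The 5 that rose in each fit without 1 library were COL5A1, COL8A1, LAMA3, LAMA5 and FBN1. COL5A1, a fibrillar collagen chain, had 6862 and 6822 counts in siCa against 16849 and 12975 in siRelA, and 2709 and 2794 recovered counts in siCtl against 7544 and 7476 in siEZH2, rises of 1.09 ± 0.08 and 1.36 ± 0.07. COL8A1 rose by 0.65 under siRelA and 0.86 under siEZH2. FBN1 (fibrillin) rose by 0.63 under siRelA and by 1.17 under siEZH2, and the difference of 1.01 was called (adjusted p 0.00015; 0.55 on the variance-stabilised values as deposited). COL1A2 rose by 0.75 under siRelA (306 and 280 counts against 586 and 424) and by 1.05 under siEZH2 (39 and 44 recovered counts against 252 and 259), but its siRelA call was lost without siCa replicate 2 (0.70) and without siRelA replicate 1 (0.57). The laminin chains LAMA3 and LAMA5 rose by 0.56 and 0.61 under siRelA and by 0.56 and 0.45 under siEZH2. LAMB3, a laminin chain that pairs with LAMA3, moved apart, with 0.51 under siEZH2 and -0.46 under siRelA, as did the lysyl oxidase LOXL4 with 1.01 and -0.62. THBS1 (thrombospondin) fell by 1.43 under siEZH2 and rose by 0.53 under siRelA. HAS2 fell in both, without holding in every fit. LOX, the collagen cross-linking enzyme, moved in a single knockdown: 74 and 64 recovered counts in siCtl against 902 and 1055 in siEZH2 (2.16 ± 0.08), and 1580 and 1767 counts in siCa against 1990 and 1516 in siRelA (0.03 ± 0.12, not called), a called difference of 3.64 (2.13 on the variance-stabilised values as deposited). Of the fibroblast markers, COL1A1 had 460 and 418 counts in siCa against 952 and 752 in siRelA, and 184 and 183 recovered counts in siCtl against 173 and 162 in siEZH2. PDGFRB had 35 and 41 recovered counts in siCtl against 172 and 215 in siEZH2, and their part in these results was not tested.

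Protease genes held both shared rises and opposite pairs. Of 29 protease and inhibitor genes, 6 rose in both (MMP14, ADAM9, ADAM10, ADAM17, ADAM19 and CTSD) and 4 rose under siEZH2 and fell under siRelA (PLAU, PLAUR, PLAT and TIMP3), beside 5.64% and 3.10% of all genes, with medians of 0.35 and -0.03. MMP14, a membrane-bound collagenase, had 12760 and 11942 counts against 18604 and 16771 (0.49 ± 0.07), and 8358 and 8956 recovered counts against 18100 and 21038 (1.15 ± 0.07). ADAM10 rose by 0.45 under siRelA and 0.35 under siEZH2, and CTSD, a lysosomal protease, by 0.52 and 0.51. The plasminogen activator genes went the other way under siRelA. PLAU (urokinase) had 18092 and 16533 counts in siCa against 3029 and 3368 in siRelA (-2.45 ± 0.10, adjusted p 5.8e-11), and 14579 and 15092 recovered counts in siCtl against 18691 and 19323 in siEZH2 (0.35 ± 0.06, adjusted p 0.00041). Its receptor PLAUR fell by 0.50 under siRelA and rose by 0.72 under siEZH2, and PLAT (tissue plasminogen activator) fell by 0.43 and rose by 1.91. Their differences of 2.81, 1.29 and 2.44 were called. ADAM9, ADAM19, TIMP3, and MMP15 with the reverse pattern, did not keep their calls in every fit without 1 library.

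The luminal and hormone-linked genes called in both knockdowns all rose. Of 12 members, 4 rose in both (PRLR, SPDEF, KRT19 and AGR2) and none fell in both or moved in opposite ways. Over all genes 5.64% rose in both, 5.87% fell in both, and 3.1% and 2.0% moved in opposite ways. None among 12 members is near these last 3 shares. The medians were 0.09 under siEZH2 and 0.33 under siRelA. PRLR, SPDEF and KRT19 held in each fit without 1 library, and AGR2 did not. SPDEF, a luminal transcription factor, had 355 and 259 counts against 721 and 571 (1.04 ± 0.17) and 134 and 150 recovered counts against 349 and 344 (0.69 ± 0.06). KRT19, a simple epithelial keratin, rose by 0.45 under siRelA and 0.76 under siEZH2. Of the 16 members of the epithelial list, 10 fell and 3 rose under siEZH2 (27.8% and 30.5% over all genes), and 6 rose and 1 fell under siRelA (11.1% and 13.4% over all genes), with medians of -0.28 and 0.17. Of these, 3 rose in both (CLDN7, KRT19 and JUP) and 3 fell under siEZH2 and rose under siRelA (PKP3, ST14 and DSP), and JUP and DSP did not hold in every fit without 1 library. CLDN7, a tight-junction claudin, rose by 1.07 under siRelA and 0.56 under siEZH2, while PKP3, a desmosomal plakophilin, had 871 and 813 counts against 1609 and 1367 (0.79 ± 0.12) and 994 and 1061 recovered counts against 664 and 762 (-0.41 ± 0.08). ST14 followed PKP3 (1.07 and -0.32), but its siRelA call was lost without siCa replicate 1 (1.07), without siCa replicate 2 (1.05) and without siRelA replicate 1 (0.75). Of 21 mesenchymal genes, 11 rose and 5 fell under siEZH2, and 2 rose and 6 fell under siRelA, with medians of 0.22 and 0.07. TGFBI rose in both, and CCN1, CCN2 and FSTL1 fell in both. CALD1 fell under siEZH2 (-0.74) and rose under siRelA (0.44), not in every fit without 1 library. ZEB1, the repressor of epithelial genes, was the 1 member with the opposite pair. It rose under siEZH2 from 1261 and 1198 to 3216 and 3284 recovered counts (1.24 ± 0.05). Under siRelA it fell from 1838 and 2068 to 1512 and 1229 counts (-0.54 ± 0.10), a called difference of 1.93.

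The 8 protein-coding genes with the largest fall common to both knockdowns were ADM, PFKFB3, RELB, CDK2, TUG1, SAA1, INSIG1 and CCN1. ADM (adrenomedullin), a vasodilator peptide gene induced by hypoxia, had 810 and 811 counts in siCa against 234 and 328 in siRelA, and 2700 and 2550 recovered counts in siCtl against 527 and 650 in siEZH2. That is a 2.90-fold fall under siRelA and a 4.46-fold fall under siEZH2. PFKFB3, which makes the activator of phosphofructokinase, went from 2406 and 2319 to 1097 and 1094 counts (-1.13 ± 0.10) and from 1903 and 1913 to 749 and 790 recovered counts (-1.08 ± 0.05). SAA1, an acute-phase protein and NF-kB target, fell from 467 and 400 to 174 and 103 counts and from 1010 and 931 to 452 and 362 recovered counts. SAA1 has near-identical copies whose reads the counting could exchange, so its level is uncertain. TUG1, best known as a long non-coding RNA, fell by 0.94 under siRelA and 1.18 under siEZH2. INSIG1, which retains the sterol sensor in the endoplasmic reticulum, fell by 0.92 and 0.91, and CCN1 (CYR61), a secreted YAP target, by 1.01 and 0.86. In these genes every knockdown library lay below both of its controls, which again follows largely from their choice by size of change.

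**Figure D3:**
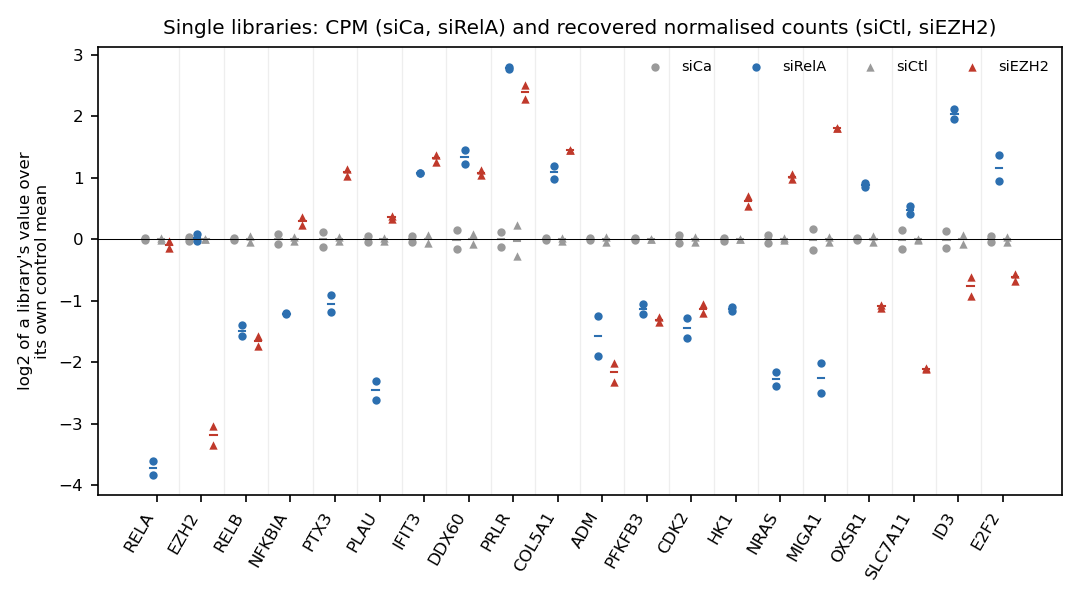
Single libraries for 20 genes: each point is the log2 of a library's value over the mean of its own control, from CPM for siCa and siRelA (circles) and recovered normalised counts for siCtl and siEZH2 (triangles), with short lines at the group means. From RELB and IFIT3 to CDK2 the knockdowns share a direction; for NFKBIA, PTX3, PLAU, HK1, NRAS, MIGA1, OXSR1, SLC7A11, ID3 and E2F2 they differ in it.

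Genes of G1/S and DNA replication fell in both knockdowns or moved apart, and 1 rose in both. Of 39 members, 27 fell and 4 rose under siEZH2, beside 27.8% and 30.5% of all genes. Under siRelA 13 fell and 9 rose, beside 13.4% and 11.1% of all genes. Together 11 fell in both, beside 5.87% of all genes, 1 rose in both (RBL1, not in every fit without 1 library) and 6 fell under siEZH2 and rose under siRelA, beside 5.64% and 2.00% of all genes, with medians of -0.32 and -0.22. CDK2, MCM2 and CDK6 were the members that fell in both in each fit without 1 library. CDK2, the kinase of cyclins E and A, had 1928 and 1730 counts against 646 and 716 (-1.44 ± 0.12) and 2358 and 2223 recovered counts against 1097 and 994 (-0.97 ± 0.06). CDK6, a kinase of D-type cyclins, fell far more under siRelA (3635 and 4298 counts against 1033 and 774, -2.17 ± 0.12) than under siEZH2 (12231 and 11026 recovered counts against 8610 and 8377, -0.44 ± 0.06), and the difference of 1.71 was called. MCM2, a subunit of the replicative helicase, fell by 0.52 under siRelA and 0.54 under siEZH2. E2F2, an activator of S-phase genes, had 192 and 176 counts against 510 and 339 (1.17 ± 0.18) and 524 and 495 recovered counts against 317 and 345 (-0.41 ± 0.06). RRM2, a ribonucleotide reductase subunit, rose by 0.76 under siRelA and fell by 0.29 under siEZH2. E2F1, E2F3 and MCM6 had the same pair of calls, not held in every fit without 1 library. Among NF-kB effectors, CCND1 (cyclin D1) fell by 1.10 under siEZH2 and 0.34 under siRelA. Of 6 inhibitors of cyclin-dependent kinases, 5 rose and 1 fell under siEZH2, beside 30.5% and 27.8% of all genes. Under siRelA 3 rose and none fell, beside 11.1% and 13.4%. CDKN1B and CDKN3 rose in both, beside 5.64% of all genes, and CDKN1A fell under siEZH2 and rose under siRelA, beside 2.00%. None of these genes kept its pair of calls in every fit without 1 library. CDKN1B (p27) rose by 0.51 under siRelA and 0.58 under siEZH2, the former lost without siCa replicate 1 (0.43). CDKN3, a phosphatase of CDKs, rose from 211 and 210 to 1505 and 1525 recovered counts under siEZH2 (2.00 ± 0.07) and by 0.40 under siRelA, lost without siCa replicate 2 (0.26) and without siRelA replicate 2 (0.35). Of 33 mitosis genes, 9 rose and 7 fell under siEZH2, and 2 rose and 2 fell under siRelA, beside the same shares of all genes. None moved together, while over all genes 5.64% rose in both and 5.87% fell in both. BUB3 alone was called in both. It rose under siEZH2 and fell under siRelA, beside 3.10% of all genes, and not in every fit without 1 library.

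Stress and amino acid genes, many of them targets of ATF4, were more often lowered in both knockdowns than moved apart. Of 25 members, 6 fell in both, 1 rose under siEZH2 and fell under siRelA (PSAT1) and 1 did the reverse (SLC7A11), beside 5.87%, 3.10% and 2.00% of all genes, with medians of -0.21 under siEZH2 and -0.31 under siRelA. ATF4, the transcription factor of the integrated stress response, had 3328 and 3230 counts against 2285 and 2492 (-0.48 ± 0.10) and 8475 and 8447 recovered counts against 4139 and 4281 (-0.96 ± 0.05). MTHFD2, a mitochondrial folate enzyme, fell by 0.89 under siRelA and 0.58 under siEZH2, and CTH, which makes cysteine, by 1.02 and 0.48. The amino acid transporters SLC7A1 and SLC1A5 fell by 0.42 and 0.48 under siRelA and by 0.68 and 0.33 under siEZH2. SLC7A11, the cystine transporter, stood apart: 11710 and 11616 recovered counts in siCtl fell to 2728 and 2696 in siEZH2 (-2.0 ± 0.05, adjusted p 2.4e-11), while 2164 and 2599 counts in siCa rose to 3442 and 3341 in siRelA (0.49 ± 0.10), a call lost without siCa replicate 1 (0.33). Its difference of -2.59 was called.

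A few YAP-TEAD targets also fell in both. Of 19 members, CCN1, CCN2, ANKRD1 and NUAK2 fell in both, the last not in every fit without 1 library, and CRIM1 fell under siEZH2 (-0.25) and rose under siRelA (0.55). AMOTL2 had the opposite pair of calls, not in every fit. Over all genes 5.87% fell in both, 3.1% rose under siEZH2 and fell under siRelA, and 2.0% did the reverse. CCN1 had 23889 and 23915 counts against 11661 and 12412 and 11594 and 11909 recovered counts against 6103 and 6599. ANKRD1, a nuclear ankyrin-repeat protein, fell by 0.85 under siRelA and 0.95 under siEZH2, and CCN2 (CTGF) by 0.75 and 0.32. Among sterol genes INSIG1 and DHCR7 fell in both in each fit without 1 library, DHCR7 by 0.42 under siRelA and 0.53 under siEZH2, but the 26 members had medians near 0 (-0.10 under siEZH2 and -0.04 under siRelA). Among 9 survival genes, MCL1, BIRC2 and BIRC3 fell in both and XIAP rose in both, beside 5.87% and 5.64% of all genes. MCL1, a BCL2 family survival protein, fell from 6404 and 6549 to 2263 and 1864 counts (-1.68 ± 0.08) and from 10104 and 9403 to 6235 and 6420 recovered counts (-0.60 ± 0.06). XIAP, an inhibitor of caspases, rose by 0.61 and 0.92 under siRelA and siEZH2.

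Many NF-kB target genes fell under siRelA, and under siEZH2 the called ones went both ways. Of 18 inhibitor and feedback genes, 11 fell and none rose under siRelA, beside 13.4% and 11.1% of all genes, while 8 fell and 4 rose under siEZH2, beside 27.8% and 30.5%, with medians of -0.40 and -0.13. NFKBIB, NFKBIE, BIRC2, BIRC3 and TNFAIP3 fell in both, and NFKBIA, CYLD, TRAF3 and TNIP2 fell under siRelA and rose under siEZH2, beside 5.87% and 3.10% of all genes. NFKBIA, the classical IkB protein and first feedback gene of NF-kB, had 1621 and 1768 counts in siCa against 784 and 708 in siRelA (-1.21 ± 0.10, adjusted p 4.7e-07). Its recovered counts were 1478 and 1536 in siCtl against 1775 and 1942 in siEZH2 (0.26 ± 0.06, adjusted p 0.00162). The knockdown libraries lay below their controls in the first experiment and above them in the second, and the difference of 1.5 was called. NFKBIE and NFKBIB, other IkB proteins, fell by 0.68 and 0.81 under siRelA and by 0.46 and 0.49 under siEZH2. BIRC3 (cIAP2), a ubiquitin ligase of NF-kB signalling, fell from 1093 and 1409 to 246 and 190 counts (-2.55 ± 0.15) and from 4099 and 3905 to 2980 and 2981 recovered counts (-0.39 ± 0.05), a called difference of 2.07. BIRC2 (cIAP1), its neighbour on chromosome 11, fell by 0.74 under siEZH2 and by 0.39 under siRelA, where the call was lost without siCa replicate 2 (-0.31). CYLD, a deubiquitinase that restrains NF-kB, rose by 0.50 under siEZH2 and fell by 0.48 under siRelA, the latter lost without siCa replicate 2 (-0.38) and without siRelA replicate 1 (-0.31). TNFAIP3, TRAF3 and TNIP2 did not keep their pair of calls in every fit without 1 library.

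Of 15 subunit and kinase genes, RELB, NFKB1, NFKB2, CHUK and TAB2 fell in both, beside 5.87% of all genes. MAP3K14 fell under siEZH2 and rose under siRelA, beside 2.0% of all genes. TAB2, an adaptor of the kinase TAK1, fell from 1623 and 1649 to 456 and 481 recovered counts under siEZH2 (-1.40 ± 0.06) and from 2434 and 2483 to 2006 and 1532 counts under siRelA (-0.51 ± 0.10), with a called difference of -1.28. MAP3K14 (NIK), the kinase of the non-canonical arm, fell by 0.40 under siEZH2 and rose by 0.40 under siRelA, the latter lost without siCa replicate 1 (0.34). CHUK did not hold in every fit without 1 library.

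Inducible effectors of NF-kB also held both shared falls and opposite pairs. Of 14 members, 9 fell and none rose under siRelA, beside 13.4% and 11.1% of all genes. Of these 9, CD83, SDC4 and CCND1 also fell under siEZH2, and PTX3, PLAU, TNFAIP2 and IRF1 rose under it. Of all genes that fell under siRelA, 43.9% fell and 23.2% rose under siEZH2. PTX3, a secreted pattern-recognition protein, had 1535 and 1773 counts in siCa against 786 and 844 in siRelA (-1.04 ± 0.12), and 1157 and 1108 recovered counts in siCtl against 2304 and 2508 in siEZH2 (0.94 ± 0.06), a called difference of 2.12. TNFAIP2 fell by 0.54 under siRelA and rose by 0.29 under siEZH2. CD83, an activation marker, fell by 1.22 under siRelA and 0.35 under siEZH2, and SDC4 (syndecan) by 0.70 and 0.35. IRF1 did not keep its pair of calls in every fit without 1 library.

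Cytokine genes held no opposite pair, but over all genes such pairs were 3.1% and 2.0%, so none among 16 members is near the share. Of these 16, 7 fell and none rose under siRelA, beside 13.4% and 11.1% of all genes. Under siEZH2 7 fell and 2 rose, beside 27.8% and 30.5%. IL6, IL11, IL24 and CSF2 fell in both, beside 5.87% of all genes, with medians of -0.78 under siRelA and -0.13 under siEZH2. IL6, the inflammatory cytokine, had 222 and 233 counts against 133 and 135 (-0.79 ± 0.20) and 580 and 636 recovered counts against 227 and 213 (-0.92 ± 0.07). Its siRelA call was lost without siCa replicate 2 (-0.74) and without siRelA replicate 1 (-0.71). IL11, an IL6 family cytokine, fell more under siRelA (737 and 738 counts against 216 and 273, -1.61 ± 0.15) than under siEZH2 (250 and 268 recovered counts against 169 and 138, -0.39 ± 0.07), a called difference of 0.86. IL24 fell more under siEZH2 (872 and 826 recovered counts against 132 and 131, -1.64 ± 0.06) than under siRelA (-0.78 ± 0.18, lost without siRelA replicate 1 at -0.57), with a called difference of -1.84 (-0.86 on the variance-stabilised values as deposited). CSF2 (GM-CSF) fell from 129 and 132 to 24 and 26 counts (-2.40 ± 0.35) and from 179 and 220 to 82 and 93 recovered counts (-0.52 ± 0.07). CXCL8, the neutrophil chemokine, moved under siRelA alone: 159 and 148 counts in siCa against 23 and 37 in siRelA (-2.37 ± 0.28), and 99 and 88 recovered counts in siCtl against 94 and 83 in siEZH2 (-0.03 ± 0.06, not called), a called difference of 2.04.

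The promoters of BIRC3, NFKBIA and PTX3 are shown because all 3 genes fell under siRelA and each window holds a kB motif, while under siEZH2 BIRC3 fell and NFKBIA and PTX3 rose. The kB motif was searched on either strand as GGGNNTTCC or the same letters with 1 more T before the CC. It begins 199 bases before the start in BIRC3 (GGAAATCCC), 81 in NFKBIA (GGAAATTCCC) and 95 in PTX3 (GGAACTCCC), each on the other strand. The RefSeq windows on GRCh38.p14 are chr11:102317234-102317533 on the plus strand for BIRC3, chr14:35404700-35404999 on the minus strand for NFKBIA and chr3:157436600-157436899 on the plus strand for PTX3. Capitals mark the motif.
BIRC3: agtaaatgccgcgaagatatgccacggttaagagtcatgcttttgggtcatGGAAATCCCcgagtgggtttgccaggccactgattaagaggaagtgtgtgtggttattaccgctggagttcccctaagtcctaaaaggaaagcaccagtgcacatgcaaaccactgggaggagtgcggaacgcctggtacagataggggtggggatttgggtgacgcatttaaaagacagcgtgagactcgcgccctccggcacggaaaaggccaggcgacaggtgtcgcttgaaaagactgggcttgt
NFKBIA: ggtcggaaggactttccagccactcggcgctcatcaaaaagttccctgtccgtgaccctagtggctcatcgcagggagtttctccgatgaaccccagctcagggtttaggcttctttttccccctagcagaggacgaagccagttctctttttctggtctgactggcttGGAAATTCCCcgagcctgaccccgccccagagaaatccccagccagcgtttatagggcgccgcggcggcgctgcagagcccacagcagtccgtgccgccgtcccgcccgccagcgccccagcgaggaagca
PTX3: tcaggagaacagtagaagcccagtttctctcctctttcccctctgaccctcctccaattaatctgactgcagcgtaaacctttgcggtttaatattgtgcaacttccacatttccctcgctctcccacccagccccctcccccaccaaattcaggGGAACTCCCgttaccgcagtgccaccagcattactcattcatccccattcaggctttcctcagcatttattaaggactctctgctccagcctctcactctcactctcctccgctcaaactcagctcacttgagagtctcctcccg

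The share of promoters that held each of the 4 motifs searched is given by class, with no test. A kB motif lay in 10.0% of the 518 promoters found for genes that rose in both, 9.35% of 556 for genes that fell in both, 10.5% of 305 for genes that rose under siEZH2 and fell under siRelA, and 7.57% of 185 for the reverse, against 9.60% of the 9499 promoters of all genes compared. The hypoxia core ACGTG lay in 34.9% of promoters of genes that fell in both, against 20.7%, 21.0% and 21.1% in the other classes and 27.4% over all. An E2F motif (TTTCCCGC or TTTGGCGC) lay in 7.03% of promoters of genes that fell under siEZH2 and rose under siRelA and 5.94% of those that fell in both, against 2.70% and 2.62% in the classes that rose under siEZH2 and 3.87% over all. The interferon motif lay in 4.44% of promoters of genes that rose in both and 2.77% over all. A match describes the letters in this window and is not a binding site.

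Hypoxia and glycolysis genes gave the most opposite pairs of any list. Of 30 members, 18 fell and none rose under siRelA, beside 13.4% and 11.1% of all genes, while 13 rose and 6 fell under siEZH2, beside 30.5% and 27.8%, with medians of -0.37 and 0.14. SLC2A3, PFKFB3, LDHA, ADM and NDRG1 fell in both, beside 5.87% of all genes. HK1, HK2, PFKP, PGAM1, ENO1, PDK1, VEGFA and BNIP3L fell under siRelA and rose under siEZH2, beside 3.1% of all genes. In each fit without 1 library, 4 of the shared falls and 5 of the opposite pairs held, those of HK1, HK2, PGAM1, PDK1 and VEGFA. HK1, a hexokinase, which catalyses the first step of glycolysis, had 7945 and 7508 counts in siCa against 3888 and 3271 in siRelA (-1.14 ± 0.08), and 5767 and 5763 recovered counts in siCtl against 8367 and 9410 in siEZH2 (0.60 ± 0.06). HK2, its inducible relative, had 3093 and 3129 counts against 1618 and 1434 (-1.05 ± 0.09) and 1437 and 1463 recovered counts against 1847 and 2089 (0.38 ± 0.09). PGAM1, a later glycolytic enzyme, fell by 0.54 under siRelA and rose by 0.60 under siEZH2. PDK1, a kinase that inhibits pyruvate dehydrogenase in mitochondria, fell by 0.78 under siRelA and rose by 0.28 under siEZH2. VEGFA, the angiogenic growth factor, fell by 0.44 under siRelA and rose by 0.37 under siEZH2. The differences of HK1, HK2, PGAM1, PDK1 and VEGFA, from 0.83 to 1.76, were all called higher under siEZH2.

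The shared falls of this list were larger under siRelA for LDHA and SLC2A3. LDHA, the lactate dehydrogenase subunit, had 48312 and 42007 counts against 12514 and 10432 (-2.0 ± 0.08) and 36720 and 36362 recovered counts against 24144 and 24386 (-0.59 ± 0.06), a called difference of 1.41. SLC2A3 (GLUT3), a glucose transporter, had 2009 and 1992 counts against 471 and 355 (-2.31 ± 0.12) and 2273 and 2109 recovered counts against 1459 and 1396 (-0.54 ± 0.06), a called difference of 1.68. PFKP, ENO1, BNIP3L and NDRG1 did not keep their pair of calls in every fit without 1 library.

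**Figure D4:**
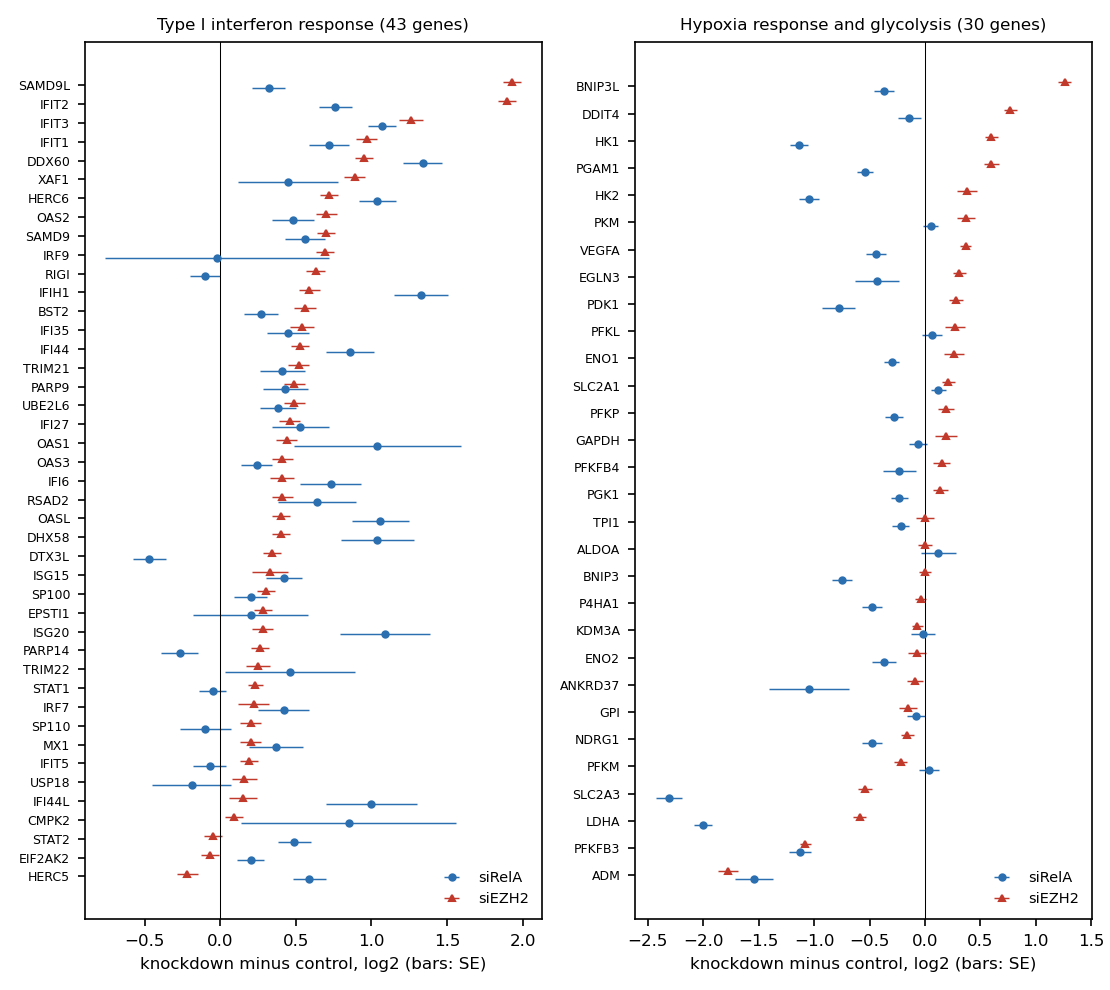
Change from control (x axis, log2, bars are standard errors) of every compared member of the interferon list (left, 43 genes) and the hypoxia and glycolysis list (right, 30 genes), for siRelA (blue circles) and siEZH2 (red triangles). On the left most members lie right of 0 in both knockdowns; on the right siRelA values lie mostly left of 0 while siEZH2 values lie on both sides.

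The 8 protein-coding genes with the largest opposite change, up under siEZH2 and down under siRelA, were MIGA1, PGM2L1, DESI2, TMEM158, PANK3, UHMK1, LBH and NRAS. MIGA1, a protein of mitochondrial fusion, had 1137 and 1406 counts in siCa against 342 and 215 in siRelA, and 495 and 525 recovered counts in siCtl against 1782 and 1787 in siEZH2. It fell 4.70-fold in the first experiment and rose 3.50-fold in the second, and the difference of 4.00 was called (adjusted p 3.5e-09). NRAS, a RAS family GTPase, had 5650 and 6062 counts against 1207 and 1257 (-2.27 ± 0.10) and 3889 and 3820 recovered counts against 8035 and 7555 (0.97 ± 0.05), a difference of 3.28. PGM2L1, which makes glucose bisphosphate, fell by 1.35 and rose by 1.23, and PANK3, a kinase of coenzyme A synthesis, fell by 1.25 and rose by 1.12. DESI2, a deSUMOylating protease family member, fell by 1.51 and rose by 1.18. TMEM158, a membrane protein linked to RAS-induced senescence, fell by 1.34 (2789 and 2986 counts against 1161 and 1161) and rose by 1.17 (227 and 242 recovered counts against 844 and 762). UHMK1, a kinase of splicing factors, fell by 1.23 and rose by 1.08, and LBH, a transcription cofactor in WNT signalling, fell by 1.31 and rose by 1.00. In all 8, knockdown and control libraries did not overlap in either experiment, which their choice by size of change makes likely. Their differences lay between 2.33 and 4.00.

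The same pattern held for 2 of 14 Notch genes (RBPJ and JAG1) and 2 of 26 WNT genes (FZD1 and ROR1). It held for 1 of 28 TGF-beta and BMP genes (SMURF2), beside 3.10% of all genes. JAG1 and ROR1 did not keep these calls in every fit without 1 library. HES1 of the Notch list, not in every such fit, and ID3 of the TGF-beta list did the reverse, beside 2.00%. In these lists, in this order, 1, 3 and 3 genes rose in both and 0, 2 and 2 fell in both, beside 5.64% and 5.87%. RBPJ, the DNA-binding partner of Notch, had 4426 and 4679 counts against 2895 and 2625 (-0.75 ± 0.09) and 1686 and 1634 recovered counts against 3704 and 3708 (1.05 ± 0.06), and LFNG, a modifier of Notch receptors, rose in both by 0.84 under siRelA and 0.92 under siEZH2. FZD1, a WNT receptor, fell by 0.74 under siRelA and rose by 0.80 under siEZH2, while the WNT co-receptor LRP5 rose in both (0.89 and 0.54) and the WNT antagonist DKK1 fell in both (4967 and 4986 counts against 2799 and 3172, and 13950 and 13620 recovered counts against 6838 and 7007). SMURF2, a ubiquitin ligase of TGF-beta signalling, fell by 0.39 and rose by 0.82. The 14 Notch, 26 WNT and 28 TGF-beta and BMP genes compared had medians between 0.06 and 0.13 in each knockdown. PSAT1, an enzyme of serine synthesis, fell by 0.41 under siRelA and rose by 0.57 under siEZH2, a called difference of 1.05.

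The reverse pattern, down under siEZH2 and up under siRelA, was led by OXSR1, MTARC1, ASB13, IFNLR1, RAVER2, CYP1A1, F2RL2 and MCOLN3. OXSR1, a kinase of ion transport and volume control, had 1152 and 1106 counts in siCa against 2293 and 1945 in siRelA (0.88 ± 0.10), and 4943 and 4617 recovered counts in siCtl against 2286 and 2210 in siEZH2 (-1.0 ± 0.05). MCOLN3, a cation channel of endosomes, had 344 and 348 counts against 566 and 619 and 719 and 762 recovered counts against 160 and 156. MTARC1, a mitochondrial reductase, rose by 0.88 under siRelA and fell by 1.29 under siEZH2, from 422 and 419 to 53 and 81 recovered counts. CYP1A1, an enzyme induced through the aryl hydrocarbon receptor, had 266 and 260 counts against 497 and 434 (0.80 ± 0.15) and 1334 and 1306 recovered counts against 585 and 622 (-0.88 ± 0.07). ASB13, an adaptor of a ubiquitin ligase, and RAVER2, an RNA-binding protein, rose by 0.88 and 0.90 under siRelA and fell by 0.86 and 0.80 under siEZH2. IFNLR1, a receptor chain for lambda interferon, rose by 0.88 and fell by 0.80, and F2RL2, a thrombin receptor, rose by 0.81 and fell by 0.78. Their siRelA calls were less firm: that of IFNLR1 was lost without siCa replicate 1 (0.70), siCa replicate 2 (1.06) or siRelA replicate 1 (0.60) and in DESeq2 (0.87), and that of F2RL2 without siCa replicate 2 (0.60) or siRelA replicate 2 (0.63). The differences of the 8 lay between -3.39 and -1.90 and were all called.

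ID3 and ID1, inhibitors of basic helix-loop-helix factors and targets of BMP signalling, rose together under siRelA and parted under siEZH2. ID3 had 194 and 158 counts in siCa against 825 and 653 in siRelA (2.04 ± 0.15), and 567 and 627 recovered counts in siCtl against 316 and 388 in siEZH2 (-0.51 ± 0.07), a called difference of -2.75. ID1 rose by 1.32 under siRelA and by 0.52 under siEZH2. BMP4, a BMP ligand, rose by 0.63 and 0.42, and TGFB2, a TGF-beta ligand, fell by 0.61 and 0.74. CHORDC1, a cochaperone of HSP90, rose by 0.84 under siRelA and fell by 0.60 under siEZH2, a called difference of -1.48.

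PRC2 genes and genes described as repressed by PRC2 showed no direction common to both knockdowns. Of 14 PRC2 members, EZH2 included, 8 fell and 3 rose under siEZH2, beside 27.8% and 30.5% of all genes. Under siRelA 2 fell and 3 rose, beside 13.4% and 11.1%. Among them RBBP4 and EPOP fell in both, beside 5.87% of all genes. LCOR and JARID2 fell under siEZH2 and rose under siRelA, beside 2.0% of all genes, JARID2 not in every fit without 1 library. RBBP4, a histone-binding core subunit, fell by 0.58 under siRelA and 0.31 under siEZH2, and EPOP, an accessory subunit, fell from 357 and 365 to 166 and 166 counts (-1.14 ± 0.18) and from 520 and 506 to 378 and 353 recovered counts (-0.32 ± 0.06). LCOR, whose locus also encodes the PRC2 accessory protein PALI1, rose by 0.57 under siRelA and fell by 0.28 under siEZH2. Of 28 genes described as repressed by PRC2, 8 were too low in 1 or both experiments to compare, CDKN2A and HOXA9 among them. Of the 20 compared, 8 rose and 5 fell under siEZH2, beside 30.5% and 27.8% of all genes. Under siRelA 2 rose and 7 fell, beside 11.1% and 13.4%. BMP4 alone rose in both, and DKK1 and SLIT2 were among those that fell in both. SLIT2, an axon guidance ligand, fell by 0.74 under siRelA and 0.33 under siEZH2, the former lost without siCa replicate 2 (-0.57). RAP1GAP, an inhibitor of the GTPase RAP1, rose under siRelA from 58 and 64 to 207 and 206 counts (1.73 ± 0.26) and fell by 0.25 under siEZH2, a called difference of -2.24. KLF2 and TIMP3 rose under siEZH2 and fell under siRelA, neither of them in every fit without 1 library.

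Further lists held 1 to 3 same-way calls each, to be read against the shares over all genes given last. Of 13 AP-1 genes, MAFF alone was called in both, with falls of 0.99 under siRelA and 0.35 under siEZH2. Of 13 microRNA machinery genes, AGO4 and TNRC6B rose in both and TNRC6A fell in both, and TNRC6B, a scaffold of silencing complexes, rose by 1.17 under siRelA and 0.36 under siEZH2. The 18 heat-shock chaperones held 3 shared falls and 2 opposite pairs, and the 28 growth factor and receptor genes 3 same-way calls and 3 that rose under siEZH2 and fell under siRelA. Over all genes 5.64% rose in both, 5.87% fell in both, 3.1% rose under siEZH2 and fell under siRelA, and 2.0% did the reverse.

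The largest called differences among genes changed by a single knockdown were, beyond RELA, EZH2 and LOX, those of GNA12, LRRC58 and CTSW on the side of siEZH2 and ZNF165, MPZL3, MAP7 and EXPH5 on the other. GNA12, a G protein alpha subunit, had 4714 and 4829 counts in siCa against 976 and 792 in siRelA (-2.46 ± 0.09), and overlapping recovered counts of 2331 and 2317 in siCtl and 2737 and 2221 in siEZH2. LRRC58 rose under siEZH2 from 755 and 680 to 4223 and 3790 recovered counts (2.13 ± 0.07), while its counts of 2483 and 2754 in siCa and 2731 and 2280 in siRelA overlapped. EXPH5, an effector of RAB27 in vesicle traffic, fell from 1361 and 1177 to 300 and 219 recovered counts (-1.62 ± 0.09), ZNF165 from 429 and 419 to 70 and 69 and MPZL3 from 529 and 513 to 95 and 102. In siCa and siRelA the counts were 144 and 181 against 228 and 198 for EXPH5, 56 and 45 against 74 and 63 for ZNF165 and 131 and 158 against 208 and 204 for MPZL3, changes that were not called. CTSW and MAP7 had fewer than 75 counts in every library of the first experiment, so their siRelA changes rest on few reads. The siEZH2 change of CTSW does too, with 8 and 16 recovered counts in siCtl against 48 and 74 in siEZH2. The integrin gene ITGA6 rose by 0.87 under siEZH2, with 15136 and 16255 counts in siCa and 18874 and 15503 in siRelA, and the difference from siRelA was called for 7 of the 14 integrin genes compared, beside 36.5% of all genes. Of these 14, 12 rose under siEZH2 and 1 rose under siRelA, beside 30.5% and 11.1% of all genes.

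**Figure D5:**
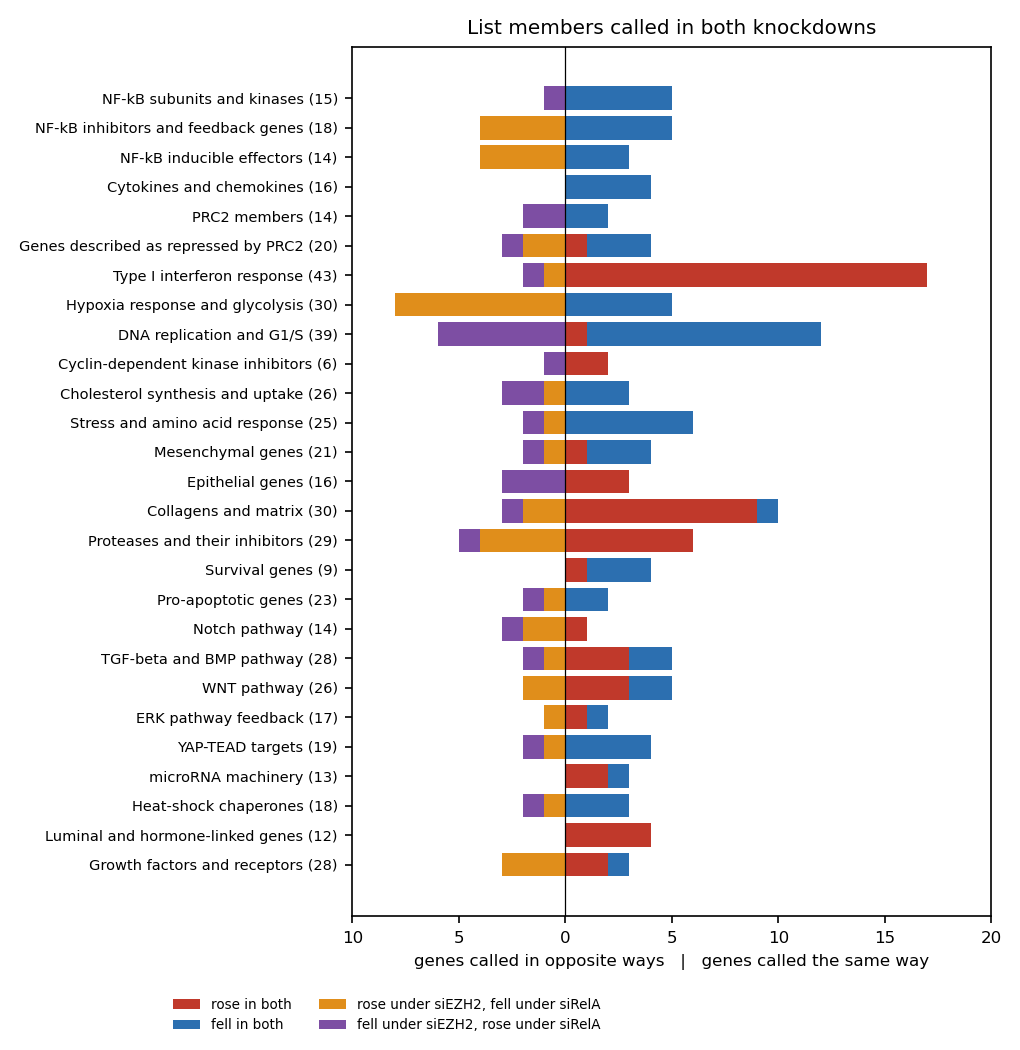
Numbers of list members called in both knockdowns (x axis, genes), to the right of 0 where the calls had the same direction and to the left where they were opposite, for lists with at least 3 such genes; the number of members compared is in brackets. The interferon list reaches 17 genes that rose in both, and the hypoxia and glycolysis list 8 that rose under siEZH2 and fell under siRelA.

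SUM149 cells, a line from inflammatory breast cancer that received the same siEZH2 treatment, gave the siEZH2 side in a further line. Its libraries gave no part of the MDA-MB-231 change itself, but they shared the filter and the estimate of spread of the siEZH2 fit, so the comparison is not independent of the calls. With the MDA-MB-231 libraries alone in that fit the 4 classes held 623, 618, 332 and 206 genes. Over all genes compared, 29.4% rose and 28.7% fell in SUM149. Of the 656 genes that rose in both MDA-MB-231 knockdowns, 473 (72.1%) rose in SUM149 and 13 fell, beside 66.9% of the 2531 genes that rose under siEZH2 with no siRelA call and 68.1% of the 360 that fell under siRelA. Among genes that fell under siEZH2 the shares varied more. Of the 682 that also fell under siRelA, 531 (77.9%) fell in SUM149, against 68.4% of the 2322 with no siRelA call and 56.5% of the 232 that rose under siRelA. At a change of at least 1.5-fold under siEZH2 these last shares were 89.4%, 90.6% and 81.8%, of 94, 266 and 44 genes. At that size the rising genes rose in SUM149 in 84.8% of the 164 that rose under siRelA, 90.7% of the 472 with no siRelA call and 90.3% of the 93 that fell under it. The median siEZH2 change of the 3 falling groups, at any size, was -0.33, -0.30 and -0.34. Of the 32 leading genes of the 4 classes, 28 were called the same way in SUM149, and PRLR, LBH, CYP1A1 and F2RL2 were not called there.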

How the data were processed

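RNA sequencing of polyadenylated RNA from MDA-MB-231 cells was compared in 8 libraries, 2 per group, which the series' design text calls biological duplicates; p-values measure only the spread between these samples. For siCa and siRelA the authors deposited raw counts per gene, made, per the submitters' processing notes, with hg19 as the genome build and HISAT2 (2.0.5) and featureCounts (1.5.0-p3) among the tools, their roles not given. For siCtl and siEZH2 the values deposited by the authors are variance-stabilised, close to log2 of normalised counts at high levels, and the same notes list hg19, DESeq2, Salmon, STAR 2.5.2b and cutadapt. The strand setting of the counting is not given in these sources, so overlapping genes cannot be told apart.

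Counts were tested with edgeR 4.0.16 (quasi-likelihood, TMM, filterByExpr, 15930 genes, 6 libraries with siRelB) and variance-stabilised values with limma 3.58.1 (trend, 8 libraries with SUM149, 12356 genes that exceeded the table's lowest value by 1 or more in 2 or more libraries). The difference of the effects was tested with limma on log2(normalised count + 8), with p-values adjusted by Benjamini-Hochberg over 11625 genes, after inverting the variance stabilisation, whose form was assumed. On simulated data edgeR on the siRelA comparison (11809 genes) recovered 57% of changes of 0.585 and 92% of changes of 1 on the log2 scale, limma on the siEZH2 comparison (11028 genes) 95.7% and 98.9%, and the difference test (11809 genes) 21% and 85%.

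Genes named in the text are EZH2 and the NF-kB subunits, then per class the 8 protein-coding genes ranked by the smaller of their changes, up to 4 members per list called in both, and the 5 largest differences each way. Members and lists were chosen with earlier results of these data known. Named after their values were seen were NFKBIA, CXCL8, HK2, SLC2A3, PGAM1, VEGFA, PDK1, RRM2, IFIH1, RAP1GAP, PSAT1, PLAT, LOXL4, LAMB3, THBS1, CCND1, HERC6, LAMA5, IFI44, OASL, TNFAIP2, DTX3L, LAMA3, SLC7A1, SLC1A5, ADAM10, SMURF2 and CRIM1, and the list members named without values. Alternatives were other tools, filters, pseudocounts, thresholds, the replicate block and leaving out each library. Annotation was GENCODE v44 and promoters were RefSeq GRCh38.p14, leaving out chromosome 8.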

Additional observations from a re-analysis of the deposited data

Results flagged for a closer look

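The siEZH2 change of 22 of the 32 leading genes differed between MDA-MB-231 and SUM149 by the interaction term of limma (Benjamini-Hochberg adjusted p under 0.05), which was called for 21.1% of all genes compared. Values are the MDA-MB-231 change minus the SUM149 change, in log2, and a gene can differ in size while moving the same way in both lines. Among genes that rose in both knockdowns the value was 1.39 for PRLR, which rose by 1.24 in MDA-MB-231 and had -0.15 in SUM149, 0.63 for IFIT3, 0.47 for ADAM17, 0.29 for SHC3, -0.45 for AGO4 and -0.66 for COL5A1. Among genes that fell in both it was -1.49 for ADM, which fell by 1.78 and 0.29, -0.67 for SAA1, -0.65 for TUG1, -0.57 for PFKFB3, -0.52 for RELB, -0.30 for CDK2 and 0.37 for CCN1. Among genes that rose under siEZH2 and fell under siRelA it was 0.88 for LBH, 0.62 for PANK3, 0.45 for TMEM158, 0.35 for NRAS and 0.32 for DESI2. Among genes that fell under siEZH2 and rose under siRelA it was -1.0 for CYP1A1, which had 0.12 in SUM149, -0.84 for F2RL2, -0.84 for MCOLN3 and -0.45 for RAVER2.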

How the results depend on the processing

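Genes that rose in both numbered 656, fell in both 682, rose under siEZH2 and fell under siRelA 360, and did the reverse 232. At an adjusted p under 0.01 these were 331, 338, 180 and 110, and at 1.5-fold 87, 41, 44 and 17. Leaving out each library gave 333 to 617, 428 to 628, 236 to 334 and 114 to 227. siRelA calls over its own table ran from 1624 without siCa replicate 1 to 2790, beside 3031 with all libraries, and fewer libraries entered each such fit. The correlation across genes, 0.167, was 0.141 with DESeq2, 0.136 without the count filter, 0.131 without the filter on variance-stabilised values, 0.182 and 0.196 with edgeR and limma on recovered counts, 0.201 on log2(normalised count + 8), 0.154 in the upper part of the mean level, 0.222 as Spearman, and 0.147 to 0.172 without each library. The RELB difference, -0.15, ran from -0.24 to 0.45 over its alternatives, with 0.45 on the deposited variance-stabilised values. On those values 9 other differences moved by over 1.5 times and kept their sign and call: LOX 3.64 to 2.13, FBN1 1.01 to 0.55, CTSW 2.67 to 1.38, IL24 -1.84 to -0.86, F2RL2 -2.41 to -1.56, MAP7 -2.70 to -1.43, MPZL3 -2.78 to -1.77, MTARC1 -3.39 to -2.14 and ZNF165 -2.84 to -1.64. That of CTSW was 1.55 with a pseudocount of 32. Changes not called that turned sign without 1 library were REL under siRelA (-0.13 to 0.03), EZH2 under siRelA (-0.03 to 0.06), GNA12 under siEZH2 (-0.06 to 0.21), LOX under siRelA (-0.10 to 0.13) and CXCL8 under siEZH2 (-0.06 to 0.00). Replicate numbers did not pair the samples (correlation of deviations -0.01 and 0.088), and with the replicate block in both fits the classes held 630, 651, 339 and 222 genes. The siRelA fit had 3 residual degrees of freedom.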
